A study of Homo sapiens with 12 samples.

Results

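The 10 transcripts described here encode proteins of the desmosome. They are DSG2, DSG3, DSC2, DSC3, DSP, JUP, PKP1, PKP2, PKP3 and PERP, chosen by name from the 29744 entries of a table of estimated RNA-seq counts, and all 10 were found. The list was set by what the proteins do, with earlier results of these data known. All 10 passed the authors' filter on low values in each of the 3 comparisons.

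Desmosomes are button-like junctions that tie the keratin filaments of neighboring epithelial cells together and let a sheet of cells bear mechanical stress. Desmogleins and desmocollins, the desmosomal cadherins, bind across the gap between cells. Inside the cell their tails hold the armadillo proteins plakoglobin and plakophilins, which in turn hold desmoplakin, and desmoplakin holds keratin. DSG2, DSC2 and PKP2 are the widespread forms, found in simple epithelia and heart, whereas DSG3, DSC3 and PKP1 are known from stratified epithelia such as skin.

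MB157 is an established line of triple-negative breast cancer (TNBC), which lacks the exons for the extracellular part of NOTCH1 and makes an active NOTCH1 without ligand. MB157R cells were derived from MB157 by 25 weeks in 1 µM of a γ-secretase inhibitor (GSI), a drug that blocks release of the intracellular domain of NOTCH1 (N1-ICD). RNA was sequenced from 4 groups of 3 libraries each. These were MB157R cells with an inducible NOTCH1 that lacks the extracellular domain (MB157R iN1-ICD), MB157R cells with the empty inducible vector (MB157R iEV), MB157 cells with inducible SOX2 (MB157 iSOX2) and MB157 cells with the empty vector (MB157 iEV). All 4 groups, the empty vectors included, received 1 µg/ml of doxycycline for 72 h according to the sample labels. Whether MB157R cells were still in GSI when RNA was taken is not stated in the sources used here. Each line is a single cell line, MB157R is a single resistant derivative of MB157, and p-values measure the spread between libraries of these cultures. The comparisons ask how the resistant cells differ from the parental cells, what SOX2 does in the parental cells, and what N1-ICD does in the resistant cells.

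Libraries held between 32773820 and 49055208 estimated counts. Levels are CPM, estimated counts scaled to a common library size, after TMM scaling over the 12 libraries. SOX2 stood at 291, 335 and 298 CPM in MB157 iSOX2, against 6.62, 7.69 and 6.99 CPM in MB157 iEV. NOTCH1 stood at 2617, 1760 and 2588 CPM in MB157R iN1-ICD, against 102, 85.4 and 90.1 CPM in MB157R iEV, so that MB157R iN1-ICD replicate 2 carried less of the induced transcript than the other two replicates. All 6 markers of mammary epithelium (EPCAM, CDH1, KRT7, KRT8, KRT18 and KRT19) were above 1 CPM in every group. Of the receptors whose absence defines triple-negative tumors, ESR1 averaged between 0.235 and 1.86 CPM and PGR between 1.65 and 5.01 CPM, but ERBB2 between 122 and 167 CPM. Of other cell types, the 6 fibroblast markers summed to 73.1 to 87.0 CPM in MB157R iEV and 16.5 to 21.1 CPM in MB157 iEV, mostly COL1A1, with DCN at 0 in MB157R. They summed to 155.6 to 166 CPM in MB157R iN1-ICD. The 3 endothelial markers summed to 98.9 to 107.5 CPM in MB157 iSOX2 and 6.04 to 7.33 CPM in MB157 iEV, mostly PECAM1 at 94.5 CPM in MB157 iSOX2, with CDH5 at 0.0151 CPM there. The 4 leukocyte markers summed to 7.16 to 9.29 CPM in MB157 iSOX2 and 36.3 to 39.9 CPM in MB157 iEV, mostly CD14, with CD3E at 0 in all 12 libraries. The 4 markers of differentiated keratinocytes summed to 38.7 to 45.9 CPM in MB157R iEV and 13.5 to 17 CPM in MB157 iEV, mostly KRT10. KRT10 averaged 25.7 CPM in MB157R iN1-ICD and 15.9 CPM in MB157 iSOX2. KRT1 and FLG, of the same list, averaged at most 0.0307 CPM in any group. The part of these markers in the results was not tested. In bulk RNA, fewer cells that express a gene and less RNA per cell cannot be told apart.

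MB157R iEV differed from MB157 iEV in all 10 desmosome transcripts. Of these, 5 were called higher (DSG2, DSG3, JUP, PKP2 and PERP) and 5 lower (DSC2, DSC3, DSP, PKP1 and PKP3). Over the 11435 genes tested, 90.2% were called, 45.0% higher and 45.3% lower, so that the count of members called is close to that of all genes. In each of the 10 the libraries of the groups did not overlap, as in 90.9% of all genes. A gene was called when its adjusted p (edgeR's quasi-likelihood test, Benjamini-Hochberg over all genes tested) was under 0.05. A change of at least 2-fold was seen for 7 of the 10, against 38.9% of all genes. These 7 were JUP, PKP2 and PERP, which were higher, and DSC2, DSC3, DSP and PKP1, which were lower.

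MB157 iSOX2 differed from MB157 iEV in 9 of the 10. PKP2, PERP and JUP were higher, DSG2, DSC2, DSC3, DSP, PKP1 and PKP3 were lower, and DSG3 was not called. Over the 10904 genes tested, 66.4% were called, 32.5% higher and 33.9% lower, and the groups did not overlap in 70.1%. PKP2 was the single member that changed at least 2-fold, against 6.05% of all genes. The median log2 fold change was -0.32 over the members and -0.0019 over all genes tested.

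MB157R iN1-ICD also differed from MB157R iEV in 9 of the 10. DSG3, DSC2, DSC3, DSP, JUP and PKP1 were higher, PKP2, PKP3 and PERP were lower, and DSG2 was not called. Over the 11210 genes tested, 59.1% were called, 29.8% higher and 29.3% lower, and the groups did not overlap in 65.2%. PKP1 and DSG3 rose at least 2-fold, against 5.17% of all genes called with a change of that size. The median log2 fold change was 0.47 over the members and -0.0014 over all genes tested. MB157R iEV libraries stand in this comparison and in that of the resistant with the parental cells, and MB157 iEV libraries in that one and in the SOX2 comparison, so the 3 sets of fold changes are given side by side and are not independent.

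**Figure D1:**
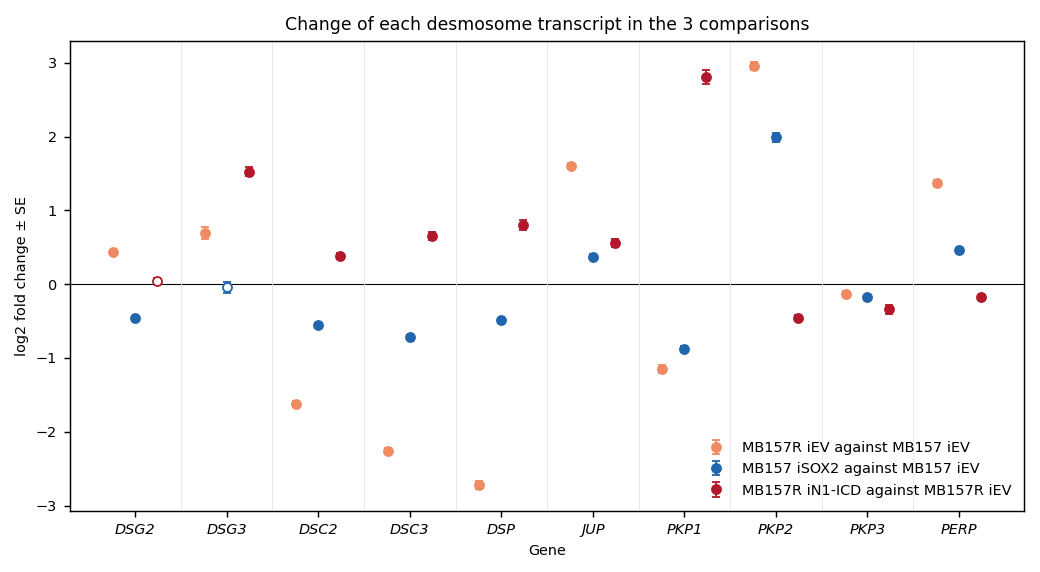
log2 fold change (y axis, with its SE) of each desmosome gene (x axis) in MB157R iEV against MB157 iEV (orange), MB157 iSOX2 against MB157 iEV (blue) and MB157R iN1-ICD against MB157R iEV (red); filled points were called at an adjusted p under 0.05 and open points were not. DSP lies lowest at -2.72 in the resistant cells, PKP2 highest at 2.96, and PKP1 at 2.81 with N1-ICD.

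Promoter sequence was given by RefSeq (GRCh38.p14) for 8 of the 10 members, with a second start for JUP and DSC2. The 250 bases before each start were searched on both strands for 4 motifs, shown in capitals below: TGGGAA, the core of the RBPJ motif; CTTTGT, a SOX core; CACCTG, an E2-box bound by ZEB and SNAIL factors; and ACCGGT, a Grainyhead-like core that reads the same on both strands. Of 35116 promoters, 20.8%, 13.7%, 17.5% and 1.45% held them in this window, in that order. The RBPJ core was found for 3 members (DSP, and the second starts of JUP and DSC2), the SOX core for 2 (DSG3 and the first start of DSC2), the E2-box for 4 (DSG2, DSC2, DSP and JUP) and the Grainyhead-like core for 0. The shares count single promoters, whereas these counts are of genes, with a match in any window of a gene (8 members with 10 windows). The counts and shares are thus not in the same unit. No match of one motif overlapped a match of another.

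The promoters of 4 genes are printed, those of the genes with the largest rises with N1-ICD (PKP1 and DSG3) and the largest falls in the resistant cells (DSP and DSC3), all 5′ to 3′ in the direction of transcription. The DSG3 window (chr18:31447491-31447740, plus strand) held 3 matches to the SOX core, starting 232, 154 and 116 bases before the start, and had the lowest GC content at 42.8%. The DSP window (chr6:7541421-7541670, plus strand) held 1 RBPJ core at 100 bases and 2 E2-boxes at 178 and 85 bases, with a GC content of 78.0%. The windows of PKP1 (chr1:201283256-201283505, plus strand) and DSC3 (chr18:31042743-31042992, minus strand) held none of the 4. A match is a description of these letters, and binding was not measured in these files.
DSG3: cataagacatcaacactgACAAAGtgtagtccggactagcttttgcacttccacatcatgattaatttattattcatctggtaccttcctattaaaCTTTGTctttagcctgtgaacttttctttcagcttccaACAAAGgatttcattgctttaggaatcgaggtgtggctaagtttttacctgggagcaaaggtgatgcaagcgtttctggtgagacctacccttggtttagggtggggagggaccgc
PKP1: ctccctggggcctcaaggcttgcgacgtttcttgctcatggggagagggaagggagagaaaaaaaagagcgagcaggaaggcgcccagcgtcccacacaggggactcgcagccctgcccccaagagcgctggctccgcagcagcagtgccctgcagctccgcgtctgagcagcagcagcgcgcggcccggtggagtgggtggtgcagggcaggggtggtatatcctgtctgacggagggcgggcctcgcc
DSP: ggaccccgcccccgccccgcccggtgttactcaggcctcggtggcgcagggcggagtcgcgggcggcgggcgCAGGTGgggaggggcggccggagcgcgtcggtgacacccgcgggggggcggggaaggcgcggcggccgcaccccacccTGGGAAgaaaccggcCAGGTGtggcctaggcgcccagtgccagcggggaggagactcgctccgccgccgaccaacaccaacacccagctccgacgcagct
DSC3: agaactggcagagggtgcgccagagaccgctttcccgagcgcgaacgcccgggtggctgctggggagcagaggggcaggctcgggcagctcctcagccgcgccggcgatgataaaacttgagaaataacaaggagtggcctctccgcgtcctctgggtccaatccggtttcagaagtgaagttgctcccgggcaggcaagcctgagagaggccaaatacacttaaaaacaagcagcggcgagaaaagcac

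The 4 desmosomal cadherins of the set lie in 1 cluster on chromosome 18 (GRCh38, RefSeq). DSC3 spans chr18:30989365-31042742 and DSC2 chr18:31058840-31102421, both on the minus strand, with 16.1 kb between them. DSG3 spans chr18:31447741-31478702 and DSG2 chr18:31498177-31549008, both on the plus strand, with 19.5 kb between them. Between the pairs lie DSC1, DSG1 and DSG4, and the 7 genes together cover 559.6 kb. The 3 genes in the middle gave almost no counts. DSC1 averaged 0.472 CPM in MB157 iSOX2 and 0.588 CPM in MB157 iEV, and had 0 counts in all 6 MB157R libraries. DSG1 averaged at most 0.272 CPM in any group, and DSG4 had 5 counts in all, in MB157R iN1-ICD.

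DSG2, the widespread desmoglein, was at 401, 398 and 420 CPM in MB157R iEV, against 297, 308 and 300 CPM in MB157 iEV. It was at 426, 409 and 412 CPM in MB157R iN1-ICD and at 219, 223 and 218 CPM in MB157 iSOX2. The MB157R libraries were all above the MB157 libraries, and the SOX2 libraries were the lowest of the 12. DSG2 was 1.35-fold higher in MB157R iEV than in MB157 iEV (log2 0.43 ± 0.0348 SE, adjusted p = 5.80e-08) and 1.37-fold lower in MB157 iSOX2 than in MB157 iEV (log2 -0.45 ± 0.0278 SE, adjusted p = 5.11e-10). With N1-ICD its libraries overlapped those of MB157R iEV and the log2 fold change was 0.04, with a 95% interval between -0.04 and 0.12 (adjusted p = 0.351).

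DSG3, the desmoglein of basal stratified epithelium and the main antigen of pemphigus vulgaris, was low in parental cells and highest with N1-ICD. It was at 115, 100 and 110 CPM in MB157R iN1-ICD, against 38.3, 36.5 and 38.8 CPM in MB157R iEV. In MB157 iSOX2 it was at 22.8, 23.0 and 22.3 CPM, against 20.8, 22.5 and 26.8 CPM in MB157 iEV. Its printed window holds the SOX core at 3 places. The N1-ICD libraries lay far above all others, and the SOX2 libraries fell inside the range of MB157 iEV, which was widened by MB157 iEV replicate 3. DSG3 was 2.87-fold higher in MB157R iN1-ICD than in MB157R iEV (log2 1.53 ± 0.0552 SE, adjusted p = 3.34e-09) and 1.62-fold higher in MB157R iEV than in MB157 iEV (log2 0.70 ± 0.0775 SE, adjusted p = 1.72e-06). DSG3 belongs to the NOTCH signature of the study, which was drawn up in part on these N1-ICD libraries, so its rise is not independent evidence of a response to NOTCH. With SOX2 the log2 fold change was -0.04, with a 95% interval between -0.20 and 0.11 (adjusted p = 0.619). Its sign turned with library totals in place of TMM (0.02) and without MB157 iEV replicate 3 (0.07), and it was called in neither.

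DSC2, the widespread desmocollin, moved the other way from DSG2 between the lines. It was at 121, 117 and 115 CPM in MB157R iEV, against 355, 363 and 374 CPM in MB157 iEV. With SOX2 in MB157 cells DSC2 was at 246, 246 and 249 CPM, and in MB157R iN1-ICD at 156, 145 and 155 CPM. Each group was separate from the other 3. DSC2 was 3.09-fold lower in MB157R iEV than in MB157 iEV (log2 -1.62 ± 0.0360 SE, adjusted p = 1.00e-13) and 1.47-fold lower in MB157 iSOX2 than in MB157 iEV (log2 -0.56 ± 0.0283 SE, adjusted p = 4.46e-11). It was 1.29-fold higher in MB157R iN1-ICD than in MB157R iEV (log2 0.38 ± 0.0411 SE, adjusted p = 1.89e-05).

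DSC3, the desmocollin of basal stratified layers, followed the same order of groups with a wider range. It was at 38.4, 36.4 and 38.5 CPM in MB157R iEV, against 183, 183 and 180 CPM in MB157 iEV. MB157 iSOX2 had 112, 109 and 110 CPM of DSC3, and MB157R iN1-ICD had 63.5, 57.1 and 56.8 CPM. The log2 fold change was -2.26 ± 0.0376 SE in the resistant cells (4.82-fold lower, adjusted p = 6.62e-15), -0.72 ± 0.0286 SE with SOX2 (1.65-fold lower, adjusted p = 1.94e-12) and 0.66 ± 0.0517 SE with N1-ICD (1.57-fold higher, adjusted p = 1.67e-06). DSC3 in MB157R iN1-ICD stayed below all libraries of both MB157 groups.

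**Figure D2:**
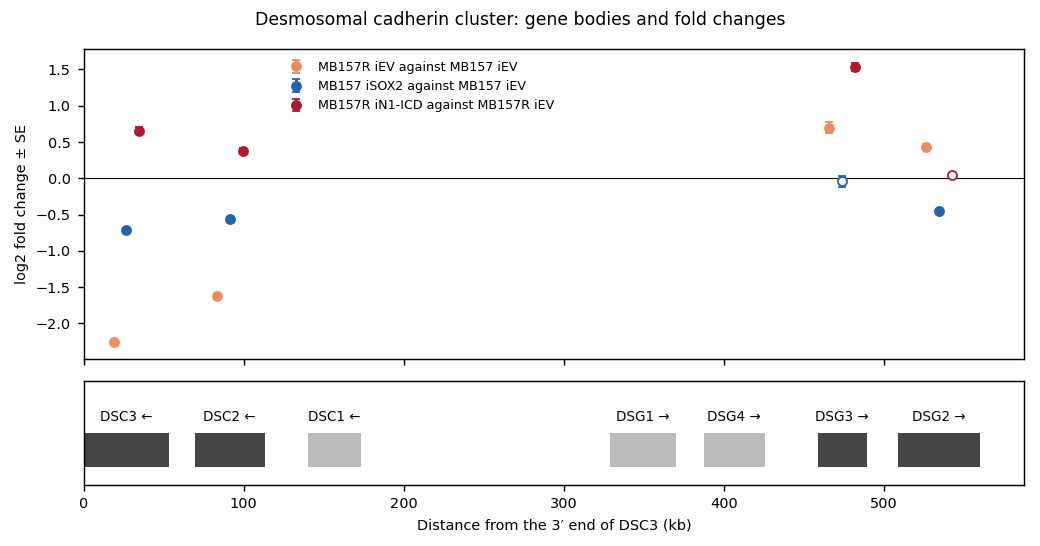
Desmosomal cadherin cluster, with distance in kb along the x axis from the 3′ end of DSC3, gene bodies below (dark for the 4 members, gray for DSC1, DSG1 and DSG4, arrows for the direction of transcription) and log2 fold changes with SE above in the 3 comparisons, open where not called. Both desmocollins lie below 0 in the resistant cells (-2.26 and -1.62) and both desmogleins above (0.70 and 0.43).

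DSP encodes desmoplakin, which fastens keratin to the plaque, and lies at chr6:7541671-7586714 on the plus strand, with 24 exons in its canonical transcript. It was at 252, 213 and 241 CPM in MB157R iEV, against 1531, 1579 and 1553 CPM in MB157 iEV. The SOX2 libraries had 1156, 1067 and 1100 CPM of DSP, and the MB157R iN1-ICD libraries 444, 375 and 406 CPM. Its printed window holds 1 RBPJ core and 2 E2-boxes. The groups were all separate, and every MB157R library lay far below the lowest MB157 library. DSP was 6.61-fold lower in MB157R iEV than in MB157 iEV (log2 -2.72 ± 0.0556 SE, adjusted p = 4.58e-14), the largest fall among the members. It was 1.40-fold lower in MB157 iSOX2 than in MB157 iEV (log2 -0.49 ± 0.0295 SE, adjusted p = 4.34e-10) and 1.74-fold higher in MB157R iN1-ICD than in MB157R iEV (log2 0.81 ± 0.0695 SE, adjusted p = 3.38e-06).

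JUP encodes plakoglobin, the armadillo protein that links cadherin tails to desmoplakin and also sits in adherens junctions, and lies at chr17:41754609-41786711 on the minus strand. It was at 715, 691 and 709 CPM in MB157R iEV, against 241, 224 and 230 CPM in MB157 iEV. In MB157R iN1-ICD it was at 1073, 954 and 1074 CPM, and in MB157 iSOX2 at 293, 310 and 297 CPM. JUP was the single member called higher in all 3 comparisons. The log2 fold change was 1.61 ± 0.0374 SE in the resistant cells (3.04-fold, adjusted p = 1.59e-13), 0.37 ± 0.0327 SE with SOX2 (1.29-fold, adjusted p = 4.39e-08) and 0.56 ± 0.0499 SE with N1-ICD (1.47-fold, adjusted p = 4.30e-06).

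PKP1, plakophilin 1, strengthens desmosomes of stratified epithelia, and lies at chr1:201283506-201332989 on the plus strand. It was at 527, 405 and 510 CPM in MB157R iN1-ICD, against 67.9, 64.2 and 74.2 CPM in MB157R iEV. In MB157 iSOX2 it was at 79.9, 87.2 and 82.6 CPM, against 150, 146 and 163 CPM in MB157 iEV. With N1-ICD it stood above all other libraries of the series, those of the parental cells included. PKP1 was 6.99-fold higher in MB157R iN1-ICD than in MB157R iEV (log2 2.81 ± 0.0933 SE, adjusted p = 1.75e-09), and 113 of the 11210 genes had a larger rise. It was 2.23-fold lower in MB157R iEV than in MB157 iEV (log2 -1.15 ± 0.0554 SE, adjusted p = 2.58e-10) and 1.84-fold lower in MB157 iSOX2 than in MB157 iEV (log2 -0.88 ± 0.0419 SE, adjusted p = 2.03e-11).

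MB157R iN1-ICD replicate 2, which had the least NOTCH1, was the lowest of its group for DSG2, DSG3, DSC2, DSP, JUP, PKP1 and PKP3. Without it the N1-ICD log2 fold change was 2.92 for PKP1, 1.58 for DSG3, 0.86 for DSP and 0.61 for JUP, and the same members were called in the same directions. Of the members lowest in MB157R iN1-ICD replicate 2, DSG2 was not called with N1-ICD and PKP3 was called lower. The share of all genes that were lowest in this replicate is not given here. The part of the replicate in the spread of these genes was not tested.

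PKP2, plakophilin 2, is the plakophilin of simple epithelia and heart, and lies at chr12:32790755-32896777 on the minus strand. It was at 54.6, 53.9 and 56.0 CPM in MB157R iEV, against 6.93, 7.22 and 7.04 CPM in MB157 iEV. PKP2 was at 29.7, 27.7 and 26.7 CPM in MB157 iSOX2, and in MB157R iN1-ICD at 39.5, 41.2 and 38.9 CPM. The parental libraries with empty vector were the lowest of the 12, and no groups overlapped. PKP2 was 7.76-fold higher in MB157R iEV than in MB157 iEV (log2 2.96 ± 0.0541 SE, adjusted p = 1.61e-14) and 3.97-fold higher in MB157 iSOX2 than in MB157 iEV (log2 1.99 ± 0.0655 SE, adjusted p = 1.58e-13), where 130 of the 10904 genes had a larger rise. With N1-ICD it was 1.38-fold lower than in MB157R iEV (log2 -0.45 ± 0.0416 SE, adjusted p = 5.40e-06).

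PKP3, plakophilin 3, which is present in most desmosomes, lies at chr11:392596-404908 on the plus strand and varied least. It was at 114, 115 and 104 CPM in MB157R iEV, against 124, 122 and 121 CPM in MB157 iEV. In MB157 iSOX2 it was at 106, 108 and 108 CPM, and in MB157R iN1-ICD at 90.9, 77.7 and 92.2 CPM. It was called lower in each comparison, with log2 fold changes of -0.13 ± 0.0415 SE in the resistant cells (adjusted p = 0.00828), -0.18 ± 0.0297 SE with SOX2 (adjusted p = 6.60e-05) and -0.34 ± 0.0666 SE with N1-ICD (adjusted p = 0.00117). The call in the resistant cells was lost when genes with a mean count of at least 5 were tested (adjusted p = 0.189) and with no filter (adjusted p = 0.268), and over all alternatives its adjusted p ranged between 0.0032 and 0.268.

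PKP1 and PKP2 thus changed in opposite directions in each comparison, and their ratio within a library, which does not depend on library scaling, varied more than that of the paired cadherins. There were on average 1.26 PKP1 counts for each PKP2 count in MB157R iEV and 21.7 in MB157 iEV. The ratio was 2.98 in MB157 iSOX2 and 12.1 in MB157R iN1-ICD. On the log2 scale the ratio was 3.58 ± 0.25 in MB157R iN1-ICD, 0.33 ± 0.08 in MB157R iEV, 1.57 ± 0.13 in MB157 iSOX2 and 4.44 ± 0.10 in MB157 iEV (SD, n = 3 each). For the desmogleins there were 3.84 DSG2 counts for each DSG3 count in MB157R iN1-ICD, 10.7 in MB157R iEV, 9.70 in MB157 iSOX2 and 13.1 in MB157 iEV. For the desmocollins there were 2.58 DSC2 counts for each DSC3 count in MB157R iN1-ICD, 3.12 in MB157R iEV, 2.24 in MB157 iSOX2 and 2.002 in MB157 iEV. No test was run on these ratios.

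**Figure D3:**
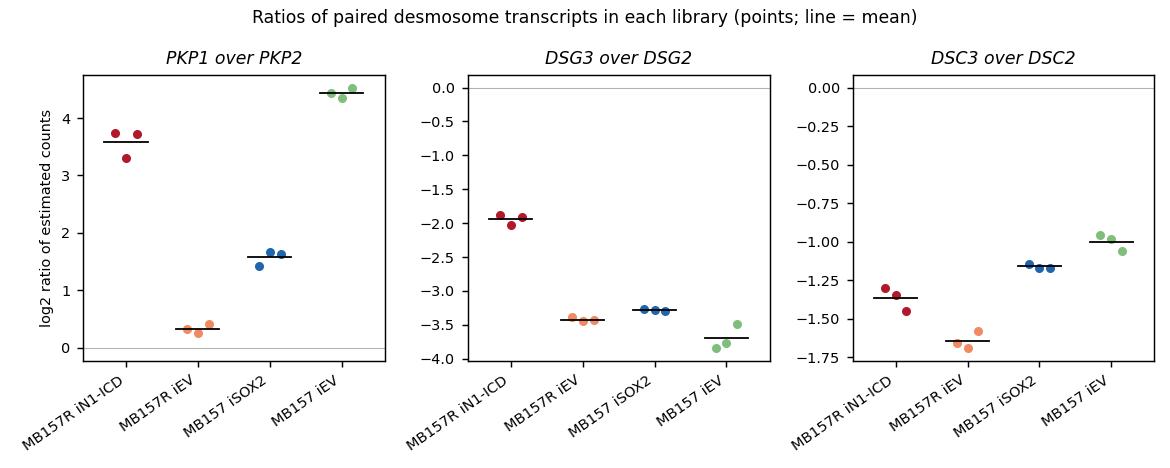
log2 ratio of estimated counts (y axis) of PKP1 over PKP2, DSG3 over DSG2 and DSC3 over DSC2 in each library (points) of the 4 groups (x axis), with the group mean as a line; each panel has its own y scale. The PKP1 to PKP2 ratio averages 3.58 in MB157R iN1-ICD, 0.33 in MB157R iEV, 1.57 in MB157 iSOX2 and 4.44 in MB157 iEV.

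PERP, a tetraspan membrane protein needed for desmosome assembly in skin and a known target of p53 and p63, lies at chr6:138088505-138107419 on the minus strand. It was at 662, 650 and 686 CPM in MB157R iEV, against 257, 261 and 254 CPM in MB157 iEV. In MB157R iN1-ICD it was at 574, 586 and 595 CPM, and in MB157 iSOX2 at 356, 349 and 357 CPM. PERP was 2.59-fold higher in MB157R iEV than in MB157 iEV (log2 1.37 ± 0.0348 SE, adjusted p = 3.66e-13) and 1.37-fold higher in MB157 iSOX2 than in MB157 iEV (log2 0.46 ± 0.0271 SE, adjusted p = 2.90e-10). It was 1.14-fold lower in MB157R iN1-ICD than in MB157R iEV (log2 -0.18 ± 0.0375 SE, adjusted p = 0.00190). The order of groups was that of PKP2.

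**Figure D4:**
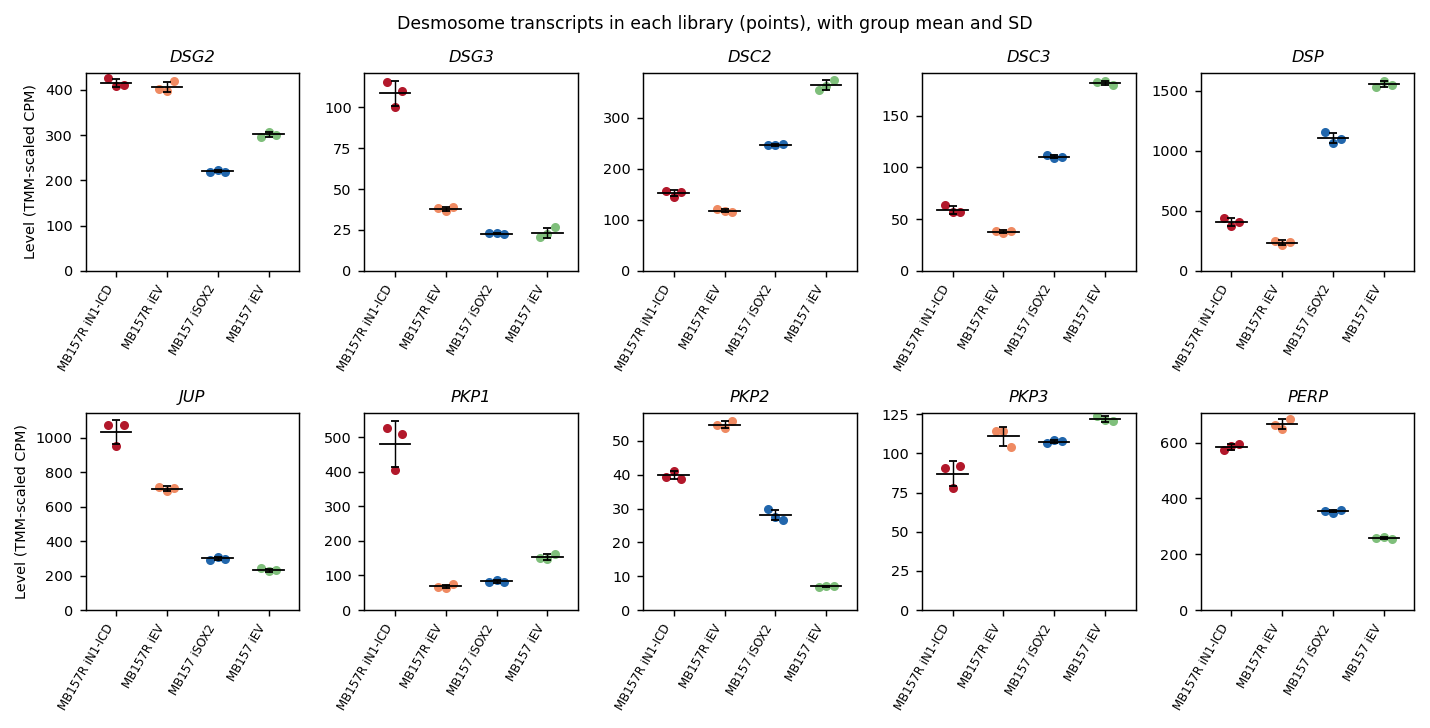
Level in TMM-scaled CPM (y axis, from 0, its own scale in each panel) of each of the 10 desmosome transcripts in the 3 libraries (points) of each group (x axis), with the group mean (line) and SD (bars). DSC2, DSC3 and DSP are highest in MB157 iEV, whereas DSG3, JUP and PKP1 are highest in MB157R iN1-ICD.

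Ordered by level, 27 of the 30 neighboring pairs of groups differed in 1 fit over the 12 libraries, where 65.0% of such pairs differed over the 12091 genes. The 3 pairs that did not were MB157R iN1-ICD and MB157R iEV for DSG2 (log2 difference 0.03, adjusted p = 0.381), MB157 iSOX2 and MB157 iEV for DSG3 (MB157 iEV higher by 0.05 on the log2 scale, adjusted p = 0.626), and MB157R iEV and MB157 iSOX2 for PKP3 (log2 difference 0.04, adjusted p = 0.430). DSC2, DSC3 and DSP shared 1 order, with MB157 iEV highest, then MB157 iSOX2, MB157R iN1-ICD and MB157R iEV. PKP2 and PERP shared the order with MB157R iEV highest, then MB157R iN1-ICD, MB157 iSOX2 and MB157 iEV. Over the 12 libraries, the members with the most similar profiles were DSC2 and DSC3, with a root mean square difference of 0.24 between their centered log2 levels, and DSC3 and DSP with 0.27.

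The SOX2 and N1-ICD comparisons share no library. Both called the same 8 members, of which 6 went in opposite directions. Over all genes tested in both, 40.0% of 10024 were called in both, and 48.2% of those 4006 went in opposite directions. DSC2, DSC3, DSP and PKP1 were lower with SOX2 and higher with N1-ICD, whereas PKP2 and PERP were higher with SOX2 and lower with N1-ICD. JUP was higher and PKP3 lower in both. The N1-ICD effect in MB157R minus the SOX2 effect in MB157 was tested in 1 fit over 12 libraries, where 59.2% of 12091 genes were called. Of all genes, 30.0% were called above 0 and 29.2% below 0. The difference was called above 0 for 7 members and below 0 for PKP2 (log2 -2.45 ± 0.0722 SE, adjusted p = 3.82e-14) and PERP (log2 -0.65 ± 0.0439 SE, adjusted p = 1.87e-09). The difference was 3.68 ± 0.115 SE for PKP1 (adjusted p = 7.40e-14), 1.57 ± 0.102 SE for DSG3 (adjusted p = 1.03e-09), 1.37 ± 0.0590 SE for DSC3 (adjusted p = 4.90e-12) and 1.29 ± 0.0844 SE for DSP (adjusted p = 1.19e-09). For JUP it was 0.18 ± 0.0626 SE (adjusted p = 0.0199), a call lost when any of 4 libraries was left out (MB157 iEV replicate 1, MB157 iSOX2 replicate 1, and MB157R iN1-ICD replicates 1 and 3), with adjusted p between 0.0519 and 0.0706. For PKP3 it was -0.17 ± 0.0753 SE (adjusted p = 0.0639) and was called without MB157R iEV replicate 3 (adjusted p = 0.0188) or without MB157R iN1-ICD replicate 1 or 3 (adjusted p = 0.0372 and 0.0246). The inductions were made in different lines, so the inducer and the line cannot be told apart in this difference.

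Summed over the 10 members, MB157R iEV libraries held 2464, 2375 and 2482 CPM, against 3166, 3216 and 3208 CPM in MB157 iEV. MB157 iSOX2 held 2620, 2550 and 2570 CPM, and MB157R iN1-ICD held 3510, 3151 and 3450 CPM. This sum, which is not scaled for transcript length, was thus lowest in MB157R iEV, and its range did not overlap that of any other group. The range of MB157R iN1-ICD overlapped that of MB157 iEV. DSP alone averaged 1555 CPM in MB157 iEV and 235 CPM in MB157R iEV. Summed per kb of transcript instead, the order changed, and MB157R iEV stood above both MB157 groups and below MB157R iN1-ICD.

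Levels of different genes were compared per kb of the canonical GENCODE transcript. On this scale DSP led in both MB157 groups, with 114 ± 4.67 CPM per kb in MB157 iSOX2 and 160 ± 2.47 CPM per kb in MB157 iEV (SD, n = 3 each). JUP led in both MB157R groups, with 295 ± 19.7 CPM per kb in MB157R iN1-ICD and 201 ± 3.49 CPM per kb in MB157R iEV. DSP ranked there below JUP, PERP, DSG2 and a plakophilin (PKP1 with N1-ICD, PKP3 with the empty vector), with 42.1 ± 3.53 CPM per kb in MB157R iN1-ICD and 24.2 ± 2.09 CPM per kb in MB157R iEV. Of the members' summed length-scaled level, JUP and PERP took 37.1% and 29.3% in MB157R iEV, against 14.0% and 13.0% in MB157 iEV. DSP took 4.47% in MB157R iEV and 34.0% in MB157 iEV. DSC2 and DSC3 took 1.76% and 0.918% in MB157R iEV, against 6.25% and 5.08% in MB157 iEV. PKP1 took 12.5% in MB157R iN1-ICD and 2.38% in MB157R iEV. The DSC2 canonical transcript has 12331 bases, the longest of the set, and if shorter forms prevailed its level per kb would be too low.

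**Figure D5:**
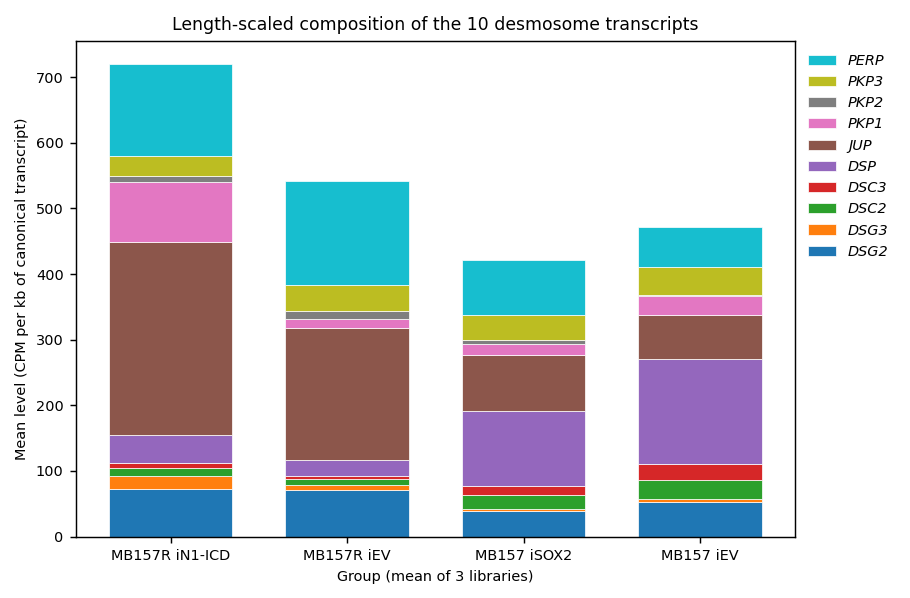
Mean level of each member in CPM per kb of canonical transcript (y axis, from 0), stacked for each group (x axis, mean of 3 libraries). DSP takes 34.0% of the stack in MB157 iEV and 4.47% in MB157R iEV, where JUP takes 37.1%. The whole stack is taller in MB157R iEV than in either MB157 group, unlike the sum without length scaling.

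The partners of the desmosome were read from lists set by function, also with earlier results of these data known. Over all genes tested, 45.0% were called higher and 45.3% lower in MB157R iEV against MB157 iEV, 32.5% higher and 33.9% lower with SOX2, and 29.8% higher and 29.3% lower with N1-ICD. Of the keratins in the list, 12 in all, 7 were higher and 4 lower of 11 tested in MB157R iEV against MB157 iEV. KRT17 averaged 479 ± 10.3 CPM in MB157R iEV and 17.9 ± 0.584 CPM in MB157 iEV (SD, n = 3 each). KRT14 averaged 7.23 ± 0.450 CPM in MB157R iEV and 58.6 ± 2.78 CPM in MB157 iEV. With SOX2, 0 of 10 keratins were higher and 9 lower, led by KRT5 at 210 ± 15.6 CPM in MB157 iSOX2 and 869 ± 28.7 CPM in MB157 iEV. With N1-ICD, 11 of 12 were higher and 1 lower, led by KRT14 at 689 ± 58.3 CPM in MB157R iN1-ICD and 7.23 ± 0.450 CPM in MB157R iEV. KRT5, KRT6A, KRT6B and KRT6C belong, like DSG3, to the NOTCH signature chosen in part on these libraries, so this count is not independent evidence. Components of the hemidesmosome, the junction that fastens keratin to the basement membrane, were 9 of 9 higher in MB157R iEV against MB157 iEV. With SOX2, 6 of 8 were higher and 1 lower, and with N1-ICD 0 of 9 were higher and 7 lower. COL17A1, a hemidesmosomal collagen, averaged 510 ± 60.3 CPM in MB157R iEV and 0.544 ± 0.0658 CPM in MB157 iEV. Of the adherens junction list, 6 of 11 were tested in each comparison. Of these, 2 were higher and 4 lower in MB157R iEV against MB157 iEV, 1 higher and 2 lower with SOX2, and 2 higher and 3 lower with N1-ICD. NECTIN1, NECTIN2 and AFDN stood in the counts under older symbols (PVRL1, PVRL2 and MLLT4), were absent from the authors' filtered genes and so were not tested. They averaged 251, 100 and 138 CPM in MB157R iEV and 68.2, 97.7 and 264 CPM in MB157 iEV, in that order. CDH2, the neural cadherin, averaged 341 ± 6.23 CPM in MB157R iEV and 1.45 ± 0.267 CPM in MB157 iEV, and CTNNA1, an alpha-catenin, 343 ± 5.87 CPM in MB157R iEV and 28.8 ± 0.0961 CPM in MB157 iEV. CDH1, the epithelial cadherin, averaged 306 ± 8.02 CPM in MB157R iEV and 576 ± 6.74 CPM in MB157 iEV. Of 9 other desmosomal and desmosome-associated genes, 2 were higher and 2 lower of 5 tested in MB157R iEV against MB157 iEV. With SOX2, 1 was higher and 3 lower of 5, and with N1-ICD 1 was higher and 0 lower of 4. PKP4, an armadillo relative of the plakophilins that is also found outside desmosomes, averaged 127 ± 4.69 CPM in MB157R iEV and 97.5 ± 4.92 CPM in MB157 iEV (log2 0.39 ± 0.0440 SE, adjusted p = 2.11e-06). KAZN, of the same list, averaged 1.21 ± 0.0737 CPM in MB157R iEV and 17.1 ± 1.34 CPM in MB157 iEV (log2 -3.81 ± 0.113 SE, adjusted p = 1.72e-12). PPL averaged 78.5 ± 5.44 CPM in MB157R iEV and 140 ± 8.48 CPM in MB157 iEV.

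Among transcription factors known to act on junction genes, listed as 17, 7 were higher and 7 lower of 15 tested in MB157R iEV against MB157 iEV. TP63, a master regulator of stratified epithelium, averaged 236 ± 16.7 CPM in MB157R iEV and 0.0551 ± 0.0347 CPM in MB157 iEV. ZNF750, a regulator of epidermal differentiation, averaged 0.160 ± 0.0316 CPM in MB157R iEV and 24.2 ± 0.927 CPM in MB157 iEV. With SOX2, 5 were higher and 5 lower of 12, and with N1-ICD 10 were higher and 5 lower of 16. ZNF750 and SNAI1 belong to the same NOTCH signature, so the count with N1-ICD is not independent evidence. With N1-ICD the largest rises were those of ZNF750 and GRHL3. ZNF750 averaged 10.8 ± 0.284 CPM in MB157R iN1-ICD and 0.160 ± 0.0316 CPM in MB157R iEV. GRHL3 averaged 18.4 ± 1.32 CPM in MB157R iN1-ICD and 2.79 ± 0.566 CPM in MB157R iEV. The largest falls were those of OVOL1 (5.84 ± 0.823 CPM in MB157R iN1-ICD and 8.68 ± 0.672 CPM in MB157R iEV) and TP63 (175 ± 7.65 CPM and 236 ± 16.7 CPM, in that order). Of 11 enzymes tied to the turnover of junction proteins, 7 were higher and 1 lower of 10 tested in MB157R iEV, 3 were higher and 2 lower of 9 with SOX2, and 1 was higher and 6 lower of 10 with N1-ICD. PRKCA, a kinase that loosens desmosomes, averaged 57.5 ± 0.565 CPM in MB157R iEV and 0.633 ± 0.201 CPM in MB157 iEV. None of these lists was tested as a set.

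Among the 9752 genes that averaged 10 CPM or more, those with profiles most like a member over the 12 libraries were NUSAP1 for DSG2 (root mean square difference of centered log2 levels 0.04), IFIH1 for DSG3 (0.22), NBPF3 for DSC2 (0.06), GPM6B for DSC3 (0.09) and ZFAS1 for DSP (0.13). For the plaque and membrane proteins they were SLC25A25 for JUP (0.09), SAT1 for PKP1 (0.24), TSPAN12 for PKP2 (0.13), HNRNPU for PKP3 (0.05) and APBB1 for PERP (0.04). SAT1 belongs to the NOTCH signature chosen in part on these libraries, so its likeness to PKP1 is not independent evidence. The libraries fall into 4 groups, so these differences describe 4 levels rather than 12 separate points.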

How the data were processed

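The authors made stranded mRNA libraries from 800 ng of RNA. They aligned reads with STAR (hg38), used Salmon for quantification, and deposited estimated counts (expected counts per gene, not normalized) for 12 libraries. The gene annotation is not given in the sources used here. Of the deposited count values, 88.0% are whole at a tolerance of 1e-06. The authors also deposited, for each comparison, log2 values of TMM-scaled CPM for the genes that passed their filter (edgeR 3.42.4, limma 3.56.2), and values recomputed here from the counts differed by less than 1e-10. Those tables were used to choose the genes tested.

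Counts were rounded to whole numbers, and each comparison was tested on its 6 libraries with edgeR's quasi-likelihood test (edgeR 4.0.16, R 4.3.3). TMM factors were used, library sizes were totals over all entries, and p was adjusted by Benjamini-Hochberg over 11435, 10904 and 11210 genes. Levels and the order of groups came from 1 scaling of 12 libraries (12091 genes). Simulated data were used to test the fits. No library repeated another (chi-square per gene between replicates of 3.99 to 12.7). Genes outside the 10 members were named from the 2 largest called rises and falls of each list, given an average of 1 CPM or more, and the text names a part of them. Marker genes, SOX2 and NOTCH1 were named beside them. The members and lists were chosen with earlier results of these data known. Positions and promoters are from RefSeq and lengths from GENCODE v44. The alternatives were RLE factors, library totals, other filters, DESeq2 1.42.0, limma-voom 3.58.1, 1 fit over 12 libraries, a block for replicate number, a threshold test at a log2 fold change of 1, and leaving out each library.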

Additional observations from a re-analysis of the deposited data

How the results depend on the processing

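The counts of members called changed by over 1.5 times in a single alternative, the test against a log2 fold change of 1. It called 3 members higher in MB157R iEV, 1 higher and 0 lower with SOX2, and 2 higher and 0 lower with N1-ICD, because it asks for a larger change. It called 4 members lower in MB157R iEV, within 1.5 times of the 5 called otherwise. With library totals alone, the log2 fold change of the members' summed level with SOX2 was -0.25, against -0.31 with TMM, and over all genes 4396 were then called higher and 2859 lower, against 3539 and 3698. The sign of DSG3 with SOX2 turned with library totals alone (0.0158), and lay between -0.1157 and 0.068 when 1 library was left out, above 0 without MB157 iEV replicate 3 alone, and the call of PKP3 in MB157R iEV was lost with a mean count of at least 5 (-0.06) and with no filter (-0.05). Leaving out 1 library at a time, the counts of members called did not change in any of the 3 comparisons, 26 to 27 neighboring pairs of groups differed, and the N1-ICD effect minus the SOX2 effect was called above 0 for 6 to 7 members and below 0 for 2 to 3.

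Replicate numbers did not pair the libraries: correlations of same-numbered libraries' deviations lay between -0.134 and 0.062. With a replicate block the members called were 5 higher and 5 lower in MB157R iEV, 3 and 6 with SOX2, and 6 and 3 with N1-ICD, and PKP1 with N1-ICD was at 2.81 on the log2 scale.

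With 3 libraries a group and at least 32773820 counts a library, DSG1, DSG4 and DSC1 did not pass the authors' filter in any comparison. They were therefore not among the genes tested in the main fits. DSC1 had 62 counts in MB157 iSOX2, 69 in MB157 iEV and 0 in each MB157R group.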
